A study of Rattus norvegicus with 20 samples.

Results

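The fatty acid desaturases and elongases of the rat liver were followed across 4 diets. The genes were taken by name: stearoyl-CoA desaturases (Scd, Scd2), fatty acid desaturases (Fads1, Fads2, Fads3) and elongases (Elovl1, Elovl2, Elovl5, Elovl6, Elovl7). Of these 10 genes, 9 had a probe set annotated to their current symbol, out of 14217 genes on the array, with 14 probe sets among the 31039 tested. The annotation used here paired no probe set with Elovl7, which was not analysed. Where a gene had several probe sets, the one with the highest average over the 20 arrays was used, and the rest served as a check.

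Liver RNA of 20 male Sprague-Dawley rats, obtained at 4 weeks of age, was hybridised to Affymetrix rat arrays with 1 array per rat. The diets crossed a protein source with an oil and were fed for 21 days: casein with soybean oil (CS), casein with fish oil (CF), kori tofu (a freeze-dried tofu) with soybean oil (TS) and kori tofu with fish oil (TF), with 5 rats in each. All diets held 200 g/kg of protein and 150 g/kg of fat. Fish oil diets held 50 g/kg of fish oil and 100 g/kg of fat from soybean, and the other diets 150 g/kg of fat from soybean. The tofu diets also contained some casein, so that total protein was equal. They held less sucrose and less energy per kg than the casein diets, a difference that cannot be told apart from that of the protein source. The rats were deprived of food for a short time before sampling, and those that ate the most and the least in each group were not used for arrays.

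The unit is a z score of the log signal, standardised within each array, so 0 lies near the middle of an array. Whether the z scores of 1 probe set differ between diets can be tested, but the scores of different probe sets do not rank their mRNAs. The protein effect is the mean of both tofu groups minus that of both casein groups, and the oil effect is fish oil minus soybean oil, each with 10 rats a side. An adjusted p is from limma with Benjamini-Hochberg adjustment over all probe sets tested, and a gene is said to have fallen or risen where it was under 0.05. In a bulk tissue, fewer cells of a type and less RNA per cell cannot be told apart.

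Stearoyl-CoA desaturase puts the first double bond into saturated fatty acids, which yields oleate and palmitoleate. Elovl6 lengthens palmitate to stearate, the preferred substrate of that step. The polyunsaturated acids of the diet are carried further by Fads2 (Δ6-desaturase), Elovl5 and Elovl2, and Fads1 (Δ5-desaturase), a route that makes arachidonic, eicosapentaenoic and docosahexaenoic acid from the 18-carbon acids of plant oils. In the liver several of these genes are transcribed under the control of sterol regulatory element-binding protein 1c and liver X receptor, and dietary polyunsaturated fatty acids are known to lower their transcription.

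Stretches before a start site of 4 genes are shown, since the mRNA of Scd, Fads2 and Fads1 fell together with tofu while that of Scd2, near Scd on chromosome 1, did not. The sequences are the 250 bases before a listed start site in the GRCr8 build, read on the strand of the gene. By the gene bounds given below, the Scd stretch lies wholly inside the gene. Those of Fads2 and Fads1 lie partly inside, and that of Scd2 lies before it. A motif absent from a stretch may therefore lie in upstream bases that were not searched. Capitals mark matches on either strand to CCAAT, the core of the NF-Y site, or to GGGCGG, the core of the Sp1 site.

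Scd (chr1:253231732-253231981, minus strand): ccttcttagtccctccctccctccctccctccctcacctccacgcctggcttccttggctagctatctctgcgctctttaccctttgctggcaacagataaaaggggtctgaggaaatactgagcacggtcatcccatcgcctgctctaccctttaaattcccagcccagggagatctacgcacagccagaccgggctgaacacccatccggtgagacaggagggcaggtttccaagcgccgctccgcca
Scd2 (chr1:253118127-253118376, plus strand): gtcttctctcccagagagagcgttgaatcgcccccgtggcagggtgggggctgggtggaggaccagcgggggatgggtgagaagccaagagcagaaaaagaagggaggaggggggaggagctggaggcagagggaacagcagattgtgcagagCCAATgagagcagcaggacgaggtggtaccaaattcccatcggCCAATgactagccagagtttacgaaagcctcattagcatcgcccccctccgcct
Fads2 (chr1:216172034-216172283, minus strand): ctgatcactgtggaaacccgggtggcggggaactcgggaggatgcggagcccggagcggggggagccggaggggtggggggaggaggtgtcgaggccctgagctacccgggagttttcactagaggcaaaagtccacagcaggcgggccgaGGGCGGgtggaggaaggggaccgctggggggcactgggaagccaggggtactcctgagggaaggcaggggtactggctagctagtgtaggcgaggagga
Fads1 (chr1:216252442-216252691, plus strand): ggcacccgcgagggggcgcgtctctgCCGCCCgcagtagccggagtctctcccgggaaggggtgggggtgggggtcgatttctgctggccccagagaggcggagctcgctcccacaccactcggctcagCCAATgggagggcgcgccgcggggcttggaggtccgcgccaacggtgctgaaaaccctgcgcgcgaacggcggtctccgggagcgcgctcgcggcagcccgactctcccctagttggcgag

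RefSeq promoters, each 300 bases long with 50 after the start site, were held for 8 of the 9 measured genes. None was held for Elovl6, and 2 start sites were held for Elovl2. Matches to CCAAT lay in those of Elovl5, Fads1, Fads3 and Scd2, and this motif occurs in 37.5% of 33469 promoters. Matches to GGGCGG lay in those of Elovl2, Fads1, Fads2 and Fads3, against 33.1% of all. The E box CACGTG was present in Elovl5, against 6.42% of all. The sterol response element TCACNCCAC (1.12% of all) and the direct repeats DR1 (0.0538%) and DR4 (0.00598%) of the half-site AGGTCA, spaced by 1 and 4 bases, had no match in the promoters held for the 8 genes. The promoters held for Elovl1 and Fads3, like that of Scd, lie inside the bounds of their genes. All motifs were searched on both strands, and no motif contains another. The 3 Fads genes lie in 1 stretch of chromosome 1, Fads3 at 216110547 to 216127431, Fads2 at 216132277 to 216172190 and Fads1 at 216252605 to 216267618. Scd2 (253118377 to 253131436) and Scd (253218968 to 253232101) form another pair on that chromosome.

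Tofu lowered the mRNA of Scd, Fads2, Fads1 and Elovl6, and no desaturase or elongase rose with it. These 4 of 9 fell, whereas 0.401% of all genes did (0.921% of all genes changed and 0.521% rose). The median protein effect of the 9 genes was -0.23 in z, against 0.011 over all genes. The probe sets of Scd, Fads2, Fads1 and Elovl6 are among those the study picked out on these same arrays, so their direction is not independent evidence. The plot by rat shows the values of all 9 genes.

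**Figure D1:**
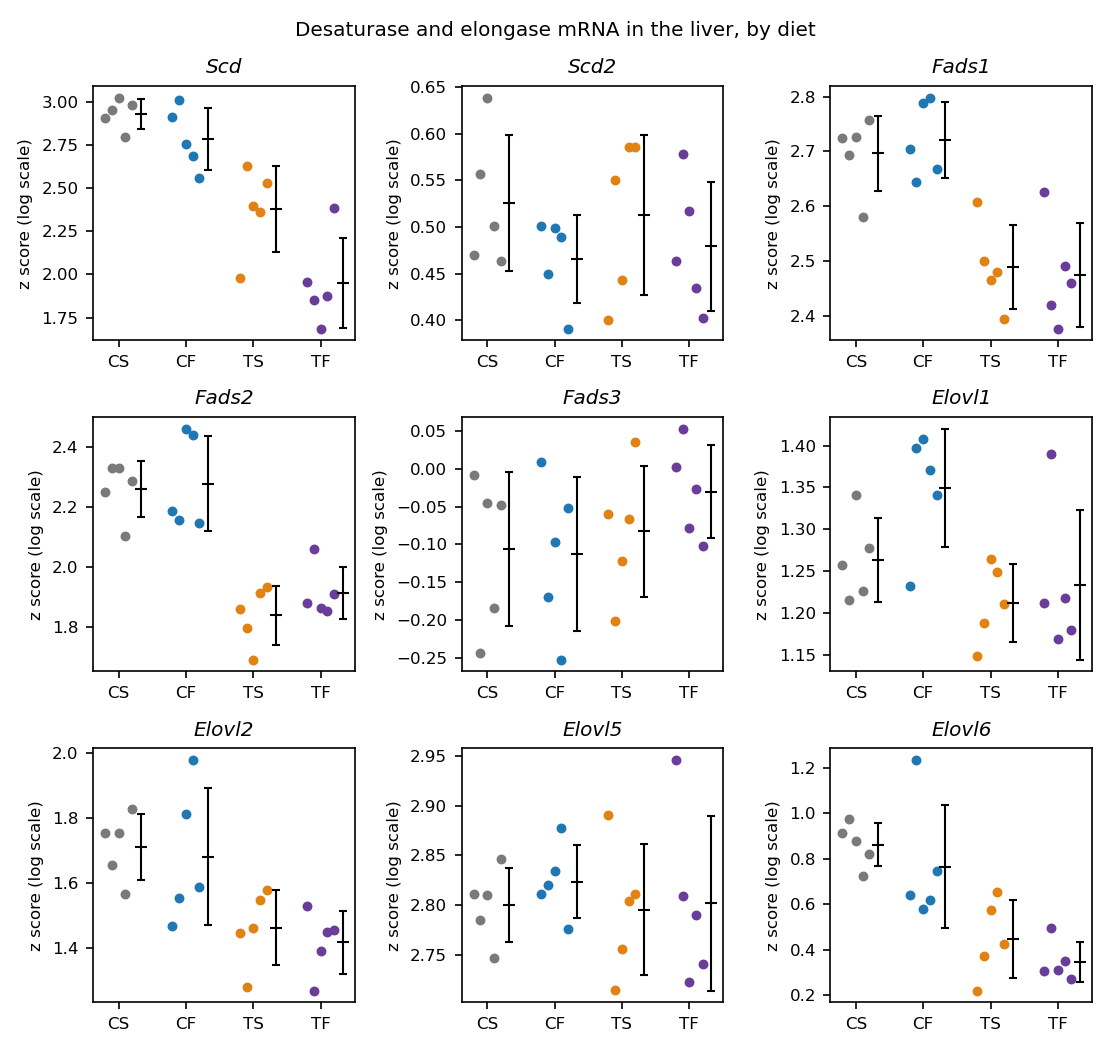
z scores (log scale, vertical axes with a range of their own in each panel) of 9 desaturase and elongase genes in each of 5 rats per diet, with the group mean and SD in black beside the points. For Fads2 all 10 tofu rats (TS, TF) lie below all 10 casein rats (CS, CF), whereas tofu and casein rats overlap for every other gene.

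Scd showed the largest protein effect of the 9 genes. In CS the rats had z scores of 2.91, 2.95, 3.03, 2.80 and 2.98, and in CF of 2.92, 3.01, 2.76, 2.69 and 2.56. In TS the scores were 1.98, 2.63, 2.40, 2.36 and 2.53, and in TF 1.96, 1.85, 1.68, 1.88 and 2.39. The CS rats lay close together at the top, the TF rats were the lowest as a group, and casein and tofu overlapped only where the highest TS rat stood above the lowest CF rat. Means ± SD (n = 5) were 2.93 ± 0.0872 for CS and 2.79 ± 0.180 for CF, against 2.38 ± 0.248 for TS and 1.95 ± 0.263 for TF. With tofu Scd fell by 0.70 in z (SE 0.0872, limma adjusted p = 0.000439), a 3.34-fold lower signal, and each of the 10 tofu rats read less than the mean of the casein rats.

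Scd2, the stearoyl-CoA desaturase better known from brain, had z scores from 0.39 to 0.64 over all 20 rats. Its protein effect was 0.00 in z with a 95% interval from -0.07 to 0.07 (limma adjusted p = 0.999), and 5 of 10 tofu rats were below the casein mean. The other 3 Scd2 probe sets were dim, with mean z scores of -0.51, -0.53 and -0.87, and their protein effects were 0.09, 0.05 and -0.13, none past the threshold. The protein effects of Scd and Scd2 differed by -0.70 (95% interval -0.89 to -0.50, two-sided exact permutation p = 3.15e-05, the smallest that 63504 permutations of protein labels within oils can give, adjusted p = 5.25e-05). This was 1 of 5 pairs compared in this way, which were chosen after the values had been seen. Whether the probes of the 2 genes share signal was not tested.

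Of the front-end desaturases, Fads2 separated the proteins fully. Its z scores were 2.25, 2.33, 2.33, 2.10 and 2.29 in CS and 2.19, 2.16, 2.46, 2.44 and 2.15 in CF. They were 1.86, 1.80, 1.69, 1.91 and 1.93 in TS and 1.88, 2.06, 1.86, 1.85 and 1.91 in TF. Every tofu rat was below every casein rat, a separation that 0.0563% of all genes showed in this direction (0.0914% in the other) and that no other of the 9 genes showed. With tofu Fads2 fell by 0.39 in z (SE 0.0499, limma adjusted p = 0.000449), a 1.98-fold lower signal.

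Fads1, the Δ5-desaturase, fell by less. Its z scores were 2.72, 2.69, 2.73, 2.58 and 2.76 in CS and 2.70, 2.64, 2.79, 2.80 and 2.67 in CF. They were 2.61, 2.50, 2.47, 2.48 and 2.39 in TS and 2.63, 2.42, 2.38, 2.49 and 2.46 in TF. No tofu rat reached the mean of the casein rats, and only the highest rat of TS and of TF stood above the lowest CS rat. The fall was 0.23 in z (SE 0.0366, limma adjusted p = 0.00526), a 1.48-fold lower signal. The adjusted p was 0.0508 without TS-7, TF-4 and TF-5, the 3 arrays least correlated with the rest, all from tofu rats.

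Fads3, a family member for which fewer fatty acid substrates are known, lay near the middle of the arrays, with z scores from -0.25 to 0.05. Its protein effect was 0.05 in z (95% interval -0.03 to 0.14, limma adjusted p = 0.710). Fads2 and Fads3 were also 1 of the 5 pairs, but with Fads3 at the middle of the arrays their difference of -0.45 in protein effect does not show that the mRNAs respond differently. Between Fads2 and Fads1 the difference was -0.17 (interval -0.27 to -0.06, exact permutation p = 0.00513, adjusted p = 0.00641).

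Elovl6, the elongase of saturated and monounsaturated acids, was the elongase that fell. Its z scores were 0.92, 0.97, 0.88, 0.72 and 0.82 in CS and 0.64, 1.24, 0.58, 0.62 and 0.75 in CF. They were 0.22, 0.37, 0.58, 0.66 and 0.43 in TS and 0.31, 0.50, 0.31, 0.35 and 0.27 in TF. CF-2 stood far above the other CF rats, and of the tofu rats only the highest TS rat stood above some casein rats. With tofu Elovl6 fell by 0.42 in z (SE 0.0736, limma adjusted p = 0.0102), a 2.06-fold lower signal, and 10 of 10 tofu rats read less than the casein mean. The other Elovl6 probe set, near the middle of the arrays with a mean z score of -0.10, fell by 0.43 (adjusted p = 0.0342). The adjusted p of the brighter one was 0.0531 without TS-7, TF-4 and TF-5 and 0.0790 without TF-3, TS-1, CS-1 and CF-1, the rats with a low value of the 5′ β-actin control.

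Elovl2, which lengthens 20- and 22-carbon polyunsaturated acids, missed the threshold. Its z scores were 1.75, 1.65, 1.75, 1.57 and 1.83 in CS and 1.47, 1.55, 1.81, 1.98 and 1.59 in CF. They were 1.45, 1.28, 1.46, 1.55 and 1.58 in TS and 1.53, 1.27, 1.39, 1.45 and 1.45 in TF. The casein mean was above 10 of 10 tofu rats, but 2 CF rats and 1 CS rat lay under the highest tofu rat. The protein effect was -0.26 in z (SE 0.0601, limma adjusted p = 0.0661), and the adjusted p was 0.0374 without CF-1. Elovl6 and Elovl2 differed in their protein effects by -0.16 (interval -0.39 to 0.07, exact permutation p = 0.149, adjusted p = 0.149), so a difference of either sign lies within the interval.

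Elovl5, the elongase of 18- and 20-carbon polyunsaturated acids, varied little, from 2.71 to 2.95 over the 20 rats. Its protein effect was -0.01 in z (95% interval -0.08 to 0.05, limma adjusted p = 0.926). The protein effect of Elovl6 was more negative than that of Elovl5 by 0.40 (interval of the difference -0.58 to -0.22, exact permutation p = 3.15e-05, adjusted p = 5.25e-05). This pair was also chosen after the values had been seen, and whether both probe sets respond alike to their mRNAs was not tested. Elovl1, which acts on saturated and monounsaturated very long chains, ranged from 1.15 to 1.41, and its protein effect was -0.08 (SE 0.0325, limma adjusted p = 0.361).

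**Figure D2:**
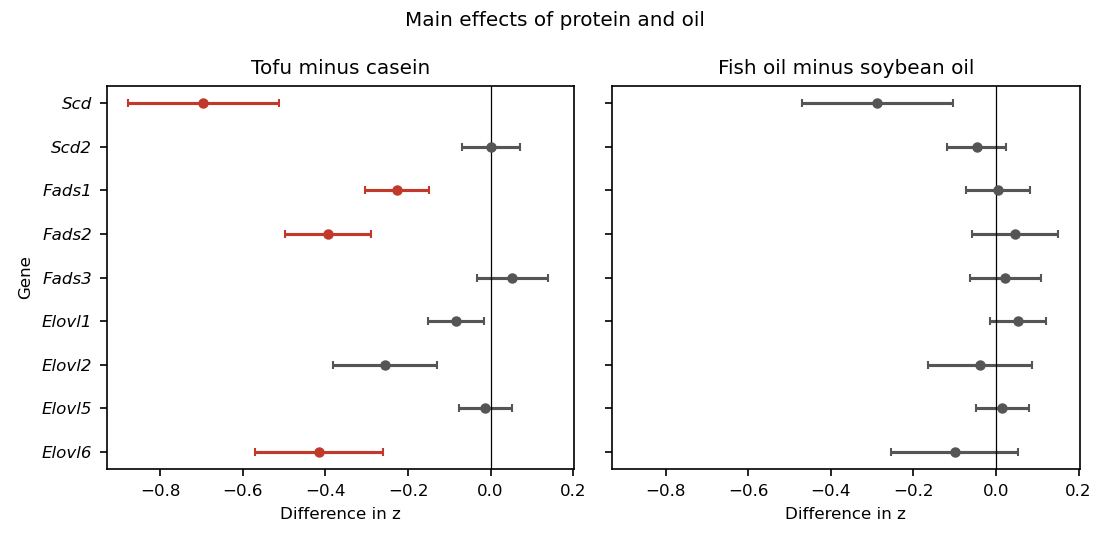
Differences in z (horizontal axes) with 95% intervals for the 9 genes, tofu minus casein on the left and fish oil minus soybean oil on the right, 10 rats a side. Red points had a limma adjusted p under 0.05: Scd, Fads2, Fads1 and Elovl6 lie left of 0 for protein, and no point is red for oil.

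No desaturase or elongase passed the threshold for the oil of the diet. With fish oil 0 of 9 changed in limma, which is no result about these genes where 0.302% of all genes changed. An unadjusted p under 0.05 was found for 1 of 9. That gene was Scd, with an oil effect of -0.29 in z (95% interval -0.47 to -0.10, limma adjusted p = 0.502), and 6 of 10 fish oil rats were below the soybean oil mean. Fads1 (0.00), Fads2 (0.05), Fads3 (0.02), Elovl5 (0.02), Elovl1 (0.05), Elovl2 (-0.04), Scd2 (-0.05) and Elovl6 (-0.10) had smaller oil effects in z than Scd, and whether protein and oil effects differed in size was not tested. For Fads2 the interval ran from -0.06 to 0.15, and for Elovl5 from -0.05 to 0.08.

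Whether tofu acted alike on both oils was tested as an interaction. In limma 0 of 9 genes passed, as did 0% of all genes, and 0 of 9 had an unadjusted p under 0.05. For Scd the protein effect was -0.56 on soybean oil and -0.84 on fish oil, an interaction of -0.28 in z (SE 0.174, 95% interval -0.65 to 0.08, limma adjusted p = 1). For Fads2 it was -0.42 and -0.36, an interaction of 0.06 (SE 0.0997).

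Between single diets, with 5 rats each, fewer genes passed. On soybean oil tofu lowered Fads2 (TS minus CS -0.42 in z, limma adjusted p = 0.0209), 1 of 9 genes against 0.0211% of all genes that fell. Scd had -0.56 there (adjusted p = 0.155). On fish oil tofu lowered Scd (TF minus CF -0.84, adjusted p = 0.00758), a 4.26-fold lower signal, 1 of 9 against 0.0492% of all genes that fell (0.0985% changed). Fads2 had -0.36 (adjusted p = 0.0655), Elovl6 -0.42 (0.245) and Fads1 -0.25 (0.108) in this comparison. The call of Scd on fish oil was lost in the fit of TF and CF alone (adjusted p = 0.124), without the 4 low 5′ β-actin arrays (0.0603) and without the 3 least correlated arrays (0.106). The call of Fads2 on soybean oil was lost on leaving out any 1 of CS-1, CS-2, CS-5, CS-7, TS-1, TS-2 or TS-4, with adjusted p up to 0.0813 over all rats left out in turn.

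The diet that differed in both parts, TF, was set against CS. Scd fell by 0.98 in z (limma adjusted p = 0.000688, 5.50-fold lower), Elovl6 by 0.52 (0.0288, 2.44-fold) and Fads2 by 0.35 (0.0296, 1.82-fold). These were 3 of 9, against 0.211% of all genes that fell and 0.542% that rose. TF and CS rats did not overlap for Scd, Fads2, Elovl6 and Elovl2, 4 of 9 genes with TF lower, against 1.19% of all genes. The calls of Fads2 and of Elovl6 were each lost on leaving out any 1 of CS-1, CS-2, CS-5, CS-7, TF-3, TF-5, TF-6 or TF-7, with adjusted p up to 0.0991 and 0.0958. These comparisons share their groups with the main effects and are not separate evidence.

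**Figure D3:**
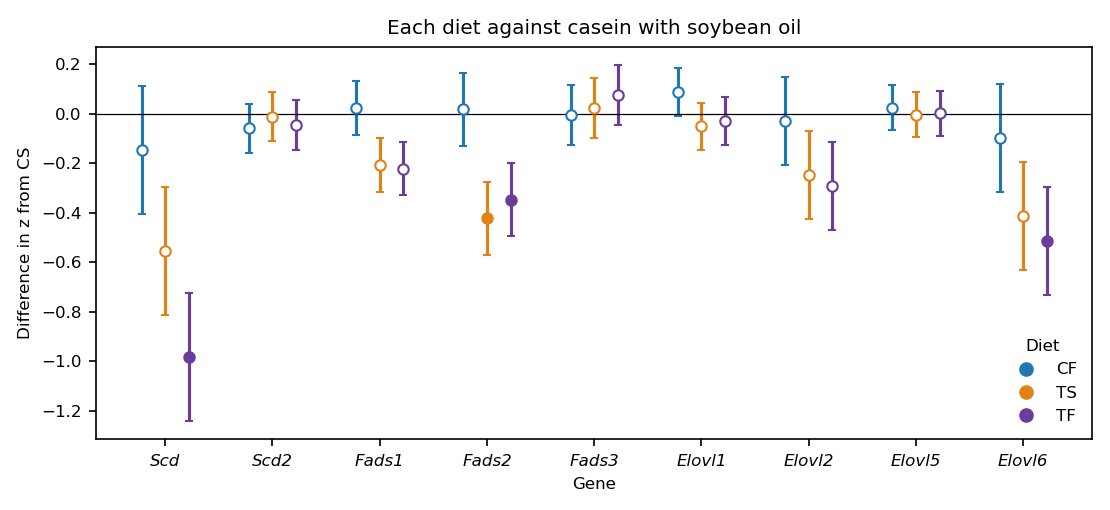
Difference in z from casein with soybean oil (vertical axis) for each gene in CF, TS and TF, 5 rats per diet, with 95% intervals. Filled points had a limma adjusted p under 0.05: Fads2 in TS, and Scd, Fads2 and Elovl6 in TF, while every CF point is open.

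Exchange of soybean oil for fish oil within 1 protein gave no call in limma, which for 9 genes is no result at the backgrounds given here. In CF minus CS 0 of 9 genes changed (0.0844% of all genes did) and 0 had an unadjusted p under 0.05. In TF minus TS 0 of 9 changed (0.134% of all), and 1 had an unadjusted p under 0.05. That was Scd, with -0.43 in z between TF and TS (95% interval -0.69 to -0.17, limma adjusted p = 0.511) and -0.15 between CF and CS (interval -0.41 to 0.11). The order of the Scd means was thus CS, CF, TS, TF, neither the step from CS to CF nor that from TS to TF passed the threshold, and CF and TS were not compared by a test. For Fads2 the order was CF, CS, TF, TS, with the same outcome for the steps within a protein.

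The genes that supply or assist these enzymes were followed as lists. Of 8 genes of de novo fatty acid synthesis, 6 fell with tofu, against 0.401% of all genes, with a median of -0.36 in z for the list, and 4 to 5 of the 8 were called when any 1 rat was left out. Fasn, fatty acid synthase, fell by 0.77 (limma adjusted p = 0.000400) and Me1, malic enzyme, by 0.51 (0.00421). Acly, ATP citrate lyase, fell by 0.44 (0.000161) and Thrsp, a lipogenic protein responsive to thyroid hormone, by 0.40 (0.0390). Acaca and Acacb, the acetyl-CoA carboxylases, fell by 0.32 (0.00842) and 0.25 (0.0390). Acacb was dim, with mean z scores of -0.11 in casein rats and -0.36 in tofu rats. The other two, Acss2 and Slc25a1, had -0.07 and -0.13. With fish oil 0 of 8 changed, no result about the list where 0.302% of all genes did. The largest oil effects were those of Fasn (-0.24) and Acly (-0.19).

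The partners of desaturation and elongation were too few to set apart from other genes, of which 0.921% changed with tofu. Of 11 measured partners (other elongases and desaturases, the later elongation enzymes and the cytochrome b5 system that feeds electrons to the desaturases) 0 changed with tofu, and the list's median was 0.02. Cyb5a, cytochrome b5, had a protein effect of 0.12 in z (adjusted p = 0.135), and Elovl3, an elongase of very long saturated chains, one of 0.24 (0.570). Degs2, a sphingolipid desaturase, had -0.06. Of 8 genes that load or place unsaturated acyl chains 0 changed with tofu, which is likewise no result about the list at that background. Among them Mfsd2a, the carrier of lysophosphatidylcholine with docosahexaenoic acid, had -0.37 (adjusted p = 0.268), and Lpcat3, which places polyunsaturated chains in phospholipids, had -0.16 (0.482). Acsl5 and Acsl3, acyl-CoA synthetases, had oil effects of -0.13 and 0.11.

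Of 12 regulators 1 fell with tofu, Insig1, which retains the SREBP complex in the endoplasmic reticulum, by 0.44 (limma adjusted p = 0.0127), against 0.401% of all genes that fell. Without the 3 least correlated arrays, or without the 4 with a low 5′ β-actin value, 0 of 12 changed. Srebf1, the gene of SREBP-1, had -0.18 in z (adjusted p = 0.340). Mlxipl, the carbohydrate response factor, and Scap, the escort of SREBP, had oil effects of -0.08 each. Of 4 measured genes of the peroxisomal step that ends docosahexaenoic acid synthesis, 0 changed with tofu, which is no result about so few genes. With fish oil 1 of them rose. It was Abcd3, a peroxisomal transporter, with 0.19 (adjusted p = 0.0431), against 0.281% of all genes that rose, and a call in this list was left in only 4 of 20 fits with 1 rat left out (CS-1, CF-7, TS-1 or TF-7). Abcd2, a related transporter, had an oil effect of 0.12.

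**Figure D4:**
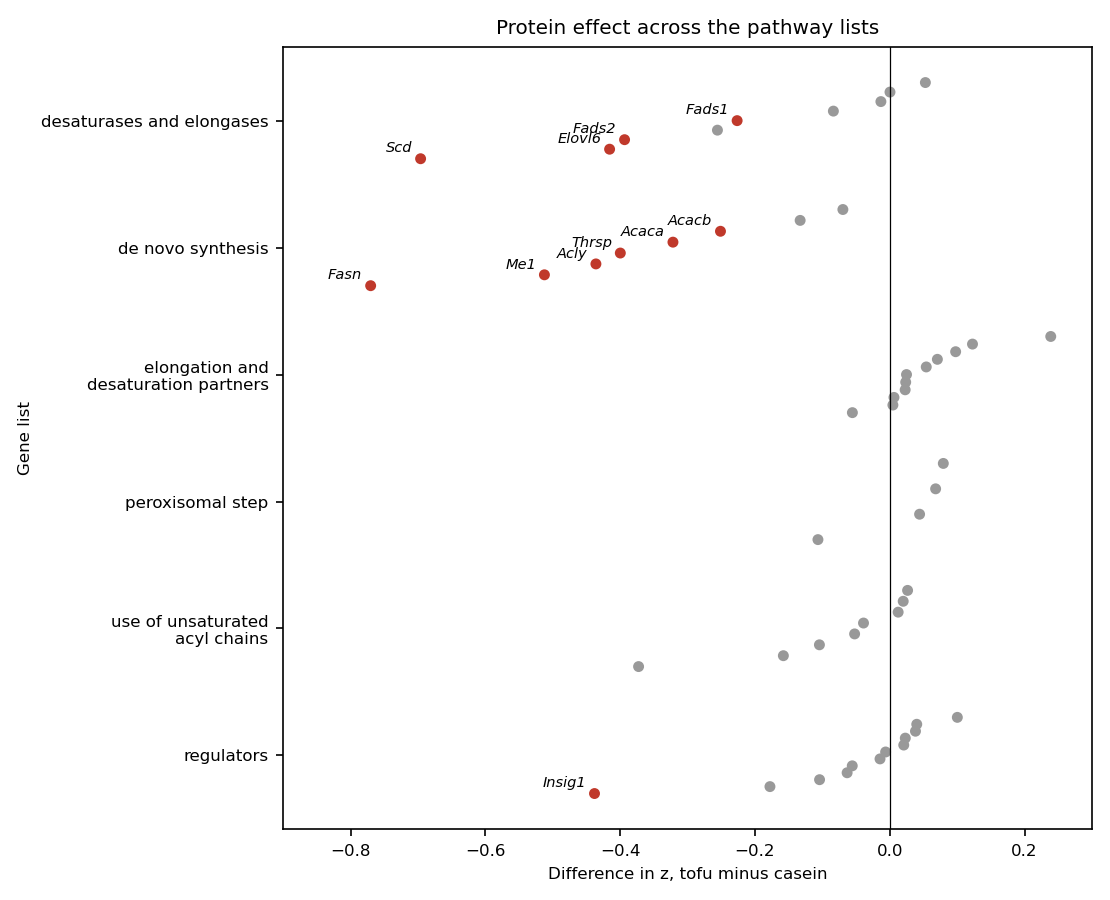
Protein effect in z (tofu minus casein, horizontal axis) of each measured gene, by list, spread vertically within a list by size. Red named points had a limma adjusted p under 0.05: 4 of 9 desaturases and elongases, 6 of 8 genes of de novo synthesis and Insig1 among 12 regulators.

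Markers of the cells of the liver were examined beside these changes. Markers of hepatocytes had mean z scores from 2.90 to 3.57, and the rats' means over the list ran from 3.13 to 3.29 in the casein groups and from 3.14 to 3.38 in the tofu groups. No marker of the 7 cell type lists changed with protein or oil, against 0.921% and 0.302% of all genes. For lists this short that is no result about the cells. All 5 endothelial markers had protein effects above 0 (median 0.07, lowest adjusted p = 0.0635), with list means of 0.99 to 1.12 in casein rats and 1.06 to 1.25 in tofu rats. All 5 Kupffer cell markers were also above 0 (median 0.04). So were 6 of 7 hepatocyte markers (median 0.06) and 5 of 7 stellate cell markers (median 0.02). Of bile duct, adipocyte and lymphocyte markers 2 of 4, 2 of 4 and 1 of 4 were above 0. The part of cell shares in the fall of Scd, Fads2, Fads1 and Elovl6 was not tested.

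The rats of 1 diet were compared for genes that varied together. Over the 36 pairs of the 9 genes, the correlation of deviations from the diet means had a median r of 0.088, 21 were above 0, 5 were above 0.5, and 0 had an adjusted p under 0.05 by permutation, for r or for rho. The highest was that of Fads1 and Elovl5, with r = 0.75 (permutation p = 0.00170, adjusted p = 0.0612), rho = 0.65 (permutation p = 0.00466, adjusted p = 0.0839) and r = 0.53 without TS-1 and TF-3, both rats with a low 5′ β-actin value. An unadjusted permutation p under 0.05 for r was also found for Elovl2 with Elovl5 (r = 0.52, permutation p = 0.0108, adjusted p = 0.195), Scd2 with Fads2 (0.52, permutation p = 0.0179, adjusted p = 0.215), Fads1 with Elovl2 (0.51, permutation p = 0.0281, adjusted p = 0.253) and Fads2 with Elovl2 (0.57, permutation p = 0.0480, adjusted p = 0.346). Their rho ran from 0.45 for Scd2 with Fads2 to 0.67 for Elovl2 with Elovl5, and without the 2 farthest rats r was 0.51, 0.59, 0.56 and 0.38 in that order of pairs.

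The 5′ β-actin control was low in 4 rats, 1 per diet (TF-3, TS-1, CS-1 and CF-1), at 1.30 to 1.42 in z against 1.86 to 2.13 in the other 16. The brighter Elovl5 probe set read 2.81 to 2.95 in these 4 rats and 2.71 to 2.88 in the others. The second Elovl5 probe set read 0.58 to 0.68 in them and 0.87 to 1.25 in the others, without overlap. Scd read 1.96 to 2.92 in them and 1.68 to 3.03 in the others. The second Elovl5 probe set had a protein effect of -0.05 (limma adjusted p = 0.898), and the part of RNA quality in its spread was not tested.

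**Figure D5:**
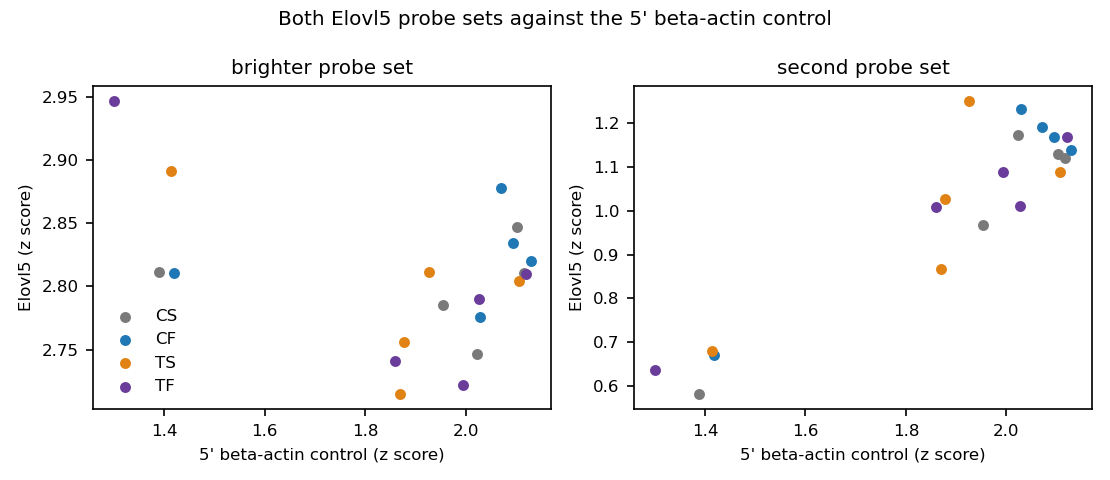
z scores of both Elovl5 probe sets (vertical axes) against the 5′ β-actin control (horizontal axis, z score) in 20 rats, coloured by diet. The 4 rats with a control value of 1.30 to 1.42 are the 4 lowest for the second probe set on the right, whereas for the brighter one on the left they read 2.81 to 2.95.

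The genes with the most similar course over the 20 arrays were found by Pearson's r among the other 14216 genes, as a description over rats that share their diets. For Scd they were Aldh1l2 (r = 0.88), Dgkq (0.87), Mycl (0.87), Pnpla3 (0.86) and Fabp2 (0.85). For Fads2 they were Cyp17a1 (0.91), Abhd6 (0.90), Dbi (0.84), Pgs1 (0.84) and Fads1 (0.83). For Elovl5 they were Atp6v0c (0.88), Cyc1 (0.82), Pebp1 (0.80), Lcat (0.80) and Cox5b (0.79), but 0 of these 5 were among the closest after quantile normalization, against 4 of 5 for Scd and 4 of 5 for Fads2. On deviations from the diet means the closest to Scd were Cacna1d (0.76), Mdfi (0.76), Sema3d (0.73), Slc6a11 (0.72) and Sh3d21 (0.72), none of them among the 5 named for Scd across diets.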

How the data were processed

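Liver mRNA was measured on 1 Affymetrix array per rat, without pooling. The authors deposited a normalised score per probe set and rat: z scores from the SuperNORM service, which standardises each array to its own lognormal distribution. By the study's methods a difference of 0.2 in z is a 1.41-fold difference, and folds here use that conversion, with none where a group mean was at or under the highest array median (0.022). The base of the logarithm and the software version are not given in the sources used here. The table holds 31099 probe sets. Without 57 controls and those with under 3 values in any diet, 31039 were tested. Array medians ran from -0.102 to 0.022. Precision is limited by the number of arrays, and p-values measure the spread between single rats.

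The main test was limma 3.58.1 (R 4.3.3) with 1 mean per diet, across every probe set. The 2-way ANOVA of the methods, over Perfect Match cells, could not be run on 1 value per probe set. Symbols come from the array's annotation, updated by gene identifier. Pairs of genes were compared by exact permutation within oils. Correlations used 100000 permutations within diets, with Python 3.11.15 and scipy 1.17.1. They were planned for 45 pairs, and 36 had both genes measured.

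All listed desaturases and elongases are named. Of the other lists, those past the threshold and the 2 largest protein and oil effects of each are named. For likeness, the 5 highest r for Scd, Fads2 and Elovl5 are named. Acss2 and Slc25a1 were named after their values were seen. The genes and lists were chosen with earlier results of these data known. The labels do not say whether rat numbers pair the rats, and the main fit took the rats as unpaired. Alternatives were other normalizations, bright probe sets, the rat number as a block, other variance models, array weights, the mean of all probe sets, fits of 2 groups and each rat left out. Those on 5′ β-actin and the least correlated arrays were chosen after seeing the data. The scripts were tested on simulated data.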

Additional observations from a re-analysis of the deposited data

Results flagged for a closer look

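Each probe set was checked in each diet for 1 rat far from the other 4, which was taken as the case where the gap to the nearest rat was over 0.71 of the group's range. Of 56 groups 4 met this, and chance marks about 1 in 20, or 2.8 here. In Elovl6, CF-2 was the highest of its diet at 1.2373 in z, with the nearest rat at 0.746 (gap 0.748 of the range). In Fads2, TF-4 was the highest at 2.0612, with the nearest at 1.9091 (0.725). In Elovl1 the same rat was the highest at 1.3895, with the nearest at 1.2183 (0.777). In the second Elovl5 probe set, CF-1 was the lowest at 0.6695, with the nearest at 1.1379 (0.833), and CF-1 is 1 of the 4 rats with a low 5′ β-actin value. The protein effect of Elovl6 and of Fads2 passed the threshold on leaving out any single rat, these included.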

How the results depend on the processing

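Scd and Fads2 fell with tofu under all 11 settings and with each of 20 rats left out in turn. No value that passed the threshold in either analysis changed sign. Of 2324 recomputed single values 129 changed sign, none of them called, 43 lost their call and 21 gained one.

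With tofu 4 desaturases and elongases changed, 2 without the 3 least correlated arrays and 4 to 5 on leaving out a rat. Elovl2 was also called with quantile normalization (adjusted p = 0.0313), bright probe sets (0.0218) and a variance trend (0.0307). For TS minus CS the count was 1, with 2 after quantile normalization, 0 in the fit of 2 groups, 0 without the low 5′ actin or the least correlated arrays, and 0 to 2 without a rat. For TF minus CF it was 1, with 3 after quantile normalization, for bright probe sets and with a variance trend, 2 with array weights, 0 in the fit of 2 groups and without either set of arrays, and 1 to 2 without a rat. For TF minus CS it was 3, with 1 without either set of arrays and 1 to 4 without a rat. Of de novo genes 6 fell, 3 without the low actin arrays and 4 to 5 without a rat. Insig1 was lost without either set of arrays (0 regulators). Abcd3 was the 1 peroxisomal gene, with 2 under equal medians and interquartile ranges, 0 without either set of arrays, and 0 to 1 without a rat. For bright probe sets 1 partner changed with tofu.

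The rat number as a replicate block left 4 desaturases and elongases with a protein effect (Scd adjusted p = 0.0147, Fads2 0.0237), 3 de novo genes, 0 peroxisomal genes, 0 calls in TS minus CS, 0 in TF minus CF (Scd adjusted p = 0.143) and 1 in TF minus CS. The labels do not say that numbers pair the rats. Over 22 pairs of rats with 1 number the correlation of deviations was -0.0982 to 0.127. Its median was 0.0371, against -0.00804 over 128 pairs with different numbers. Of 20 rats 6 correlated best with their own number, and whether this exceeds chance was not tested. The cause of these changes was not tested, beyond fewer arrays where arrays were left out. Brightness limits what the array shows for the dim Scd2 probe sets, Fads3, the second Elovl6 probe set and Acacb.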
